A study of Mus musculus with 8 samples.

Results

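The genes described here encode 36 proteins of the Z-disc or proteins that crosslink actin filaments. They were chosen by name from their known roles, at a time when earlier results of these data were known. Of them, 35 had a named row among the 19505 genes measured (*Pdlim7* is unnamed here). RNA came from cultured primary mouse myoblasts of *RhoA* flox/flox; Pax7-nGFP mice, sorted from hindlimb muscles, differentiated for 3 days into myotubes and then given an adenovirus for 48 h. All cultures shared the floxed *RhoA* alleles, the Pax7-nGFP reporter, the adenovirus and its mCherry. In the 4 Ad-mCherry arrays the virus carried mCherry alone, so *RhoA* stayed intact, and in the 4 Ad-Cre-mCherry arrays it also carried Cre, which cuts out the floxed part of *RhoA*. The groups therefore differ in Cre as well as in *RhoA*, and the share of nuclei that lost *RhoA* was not measured here. The labels name no strain or age for the mice. The comparison asked which genes depend on RhoA, a small GTPase that controls actin polymerisation and contractility, inside the myotube. The number of independent cultures in the study's methods is smaller than the number of arrays per virus, so some arrays may share a culture, and p-values then measure only the spread between these arrays.

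The Z-disc is the boundary of the sarcomere, where thin filaments of opposite polarity are anchored and tied together by alpha-actinin. Filamins, PDZ-LIM proteins, myozenins, LIM-only proteins and sorbin homology adaptors bind alpha-actinin, actin or each other there, and link the outermost Z-discs to the membrane. Several of the families also have members that are used mostly outside muscle, in stress fibres and focal adhesions.

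*RhoA* itself checked the labels. It read 11.16, 11.39, 11.08 and 11.39 on the log2 scale in Ad-mCherry replicates 1 to 4 and 9.99, 10.87, 10.87 and 10.23 in Ad-Cre-mCherry replicates 1 to 4, and the groups did not overlap. Its limma log2 fold change (Ad-Cre-mCherry over Ad-mCherry) was -0.77 with a standard error of 0.23 (adjusted p = 0.729), and -0.63 without replicate 4, where it no longer passed an unadjusted p under 0.05. All 8 myotube markers were measured, at 9.41 to 19.37 with Ad-mCherry and 8.28 to 19.19 with Ad-Cre-mCherry, and their summed linear level was 1090000 to 1350000 against 923000 to 1090000. Among them *Myog*, a myogenic transcription factor, and *Myh3*, the embryonic myosin heavy chain, had log2 fold changes of -1.48 and -1.23, and both reached a limma adjusted p of 0.0396 when the replicate number was fitted as a block. The other myotube markers differed less or the other way: *Ttn* at -0.65 and *Chrna1* at -0.30, *Acta1* at -0.15, *Mymk* at -0.13 and *Des* at -0.04, with *Ckm*, the muscle creatine kinase, higher in all 4 replicate numbers (0.62, past the thresholds with the block only). The median of the 8 was -0.22. All 5 fibroblast markers lay at 3.01 to 6.08 and 3.47 to 6.22 (summed 140 to 221 against 122 to 193), and the smooth muscle marker *Acta2*, which cultured muscle cells also express, lay at 13.48 to 18.01 and 12.69 to 16.73 (log2 fold change -1.17, limma adjusted p = 0.0428 with the block). All 4 smooth muscle and pericyte markers summed to 11500 to 264000 against 6660 to 109000, and the 2 myoblast markers, *Pax7* and *Myf5*, to 306 to 1810 against 127 to 776. Macrophage (3 of 4 measured), endothelial (3 of 3) and Schwann cell (1 of 3) markers lay at 5.42 or lower in every array. The part of these markers in the results on Z-disc genes was not tested, and in a bulk culture fewer myotubes cannot be told apart from less RNA per myotube.

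Most Z-disc and crosslinking genes had a lower mean with Ad-Cre-mCherry. Of the 35 measured, 29 were lower and 6 higher (*Actn3*, *Myoz1*, *Myoz3*, *Csrp1*, *Fhl2* and *Fhl3*). By the same measure 9705 of all 19505 genes were lower and 9800 higher. The median log2 fold change of the 35 was -0.54, against 0 over all 19505 genes. At the thresholds of the study, an unadjusted p under 0.05 at a fold of 1.2 or more, 6 genes were lower (17.1%): *Sorbs2*, *Synpo2l*, *Actn4*, *Xirp1*, *Pdlim5* and *Pdlim2*. Over all genes 3.50% were lower by the same thresholds. None of the 35 was higher by them, where 2.92% of all genes were. The all-gene shares include many dim rows, with a mean below the median row mean. Of the 35 genes 2 were dim, against 9555 of all 19505. With dim rows left out, the same 6 genes were lower, against 4.26% of the 9950 genes that remained. After Benjamini-Hochberg adjustment limma called 0 of the 35 genes and 0% of all genes. An unadjusted limma p under 0.05 was found for 6 of the 35, and for 1252 of all 19505 genes. Adjusted p-values of the 35 ran from 0.729 to 0.995. The groups did not overlap for 4 genes, all lower with Ad-Cre-mCherry (*Actn4*, *Pdlim2*, *Pdlim5* and *Sorbs2*, 11.4%), where 1.93% of all genes were lower and 1.82% higher without overlap.

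**Figure D1:**
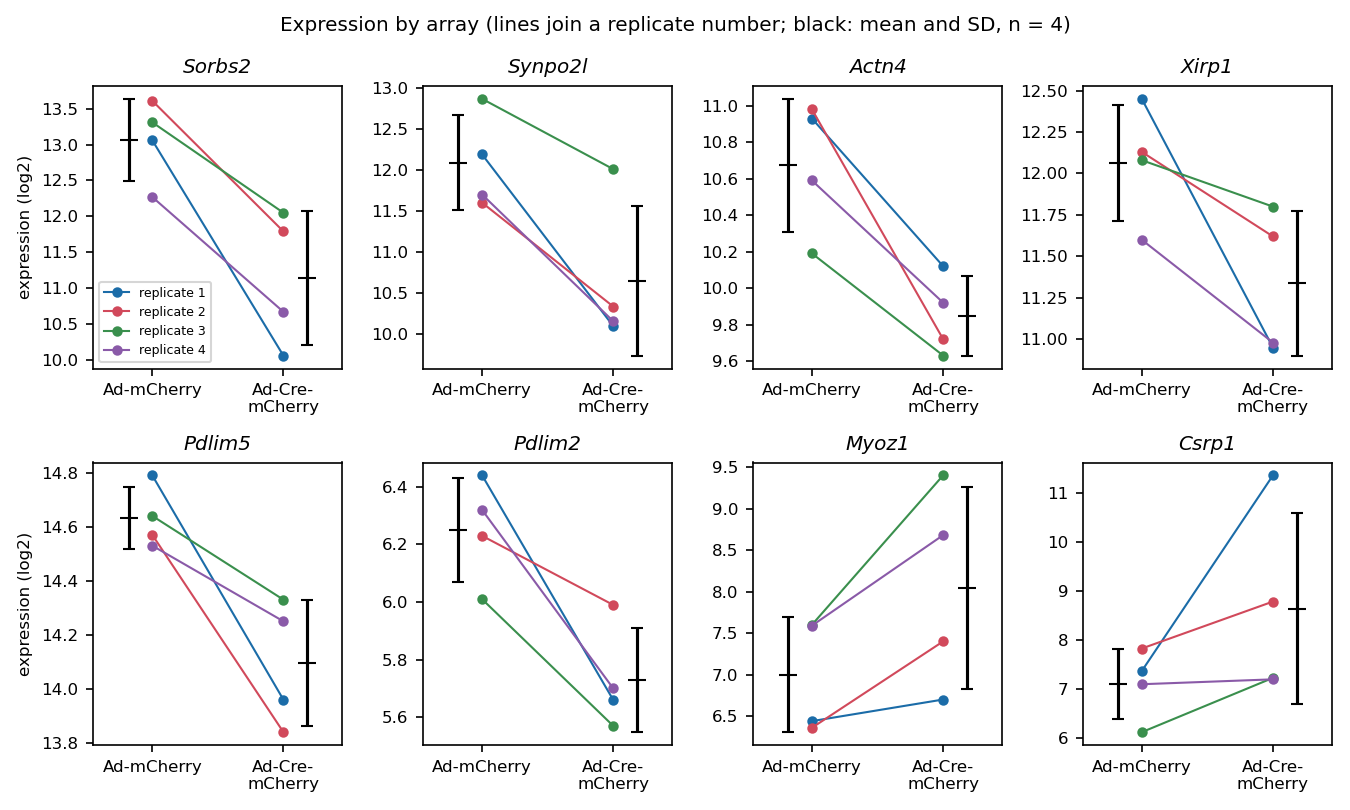
Log2 expression on each array (vertical axis, with its own range in each panel) of the 6 genes past the thresholds of the study and of *Myoz1* and *Csrp1*, with 1 colour and 1 line per replicate number and the mean and SD of each group in black (n = 4). The groups do not overlap for *Sorbs2*, *Actn4*, *Pdlim5* and *Pdlim2*, and all lines of *Myoz1* and *Csrp1* point upward.

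Arrays with the same replicate number deviated together from their group means, so the genes were also compared within numbers. The Ad-mCherry arrays spanned 0.26 to 4.22 on the log2 scale (median 1.41). For 28 of 35 genes this span was larger than the difference between the groups, as it was for 17988 of all 19505 genes. When each Ad-Cre-mCherry array was set against the Ad-mCherry array of its number, 22 genes were lower in all 4 numbers (62.9%), where 11.1% of all genes were, and 2 were higher in all 4 (*Csrp1* and *Myoz1*), where 9.88% of all genes were. When limma was fitted with these numbers as a block, 18 of 35 genes were lower by the thresholds of the study (51.4%), against 8.20% of all genes. In this fit 2 genes were higher (*Csrp1* and *Myoz1*, 5.71%), against 6.54% of all genes. The all-gene shares within numbers and with the block include the dim rows, and were not computed without them. At a limma adjusted p under 0.05 the block left 2 genes that fell, *Sorbs2* and *Synpo2l*, where 0.220% of all genes fell, and 0 that rose, where 0.103% of all genes rose. With alternatives added after the data were seen, the blocked count of lower genes was 13, 16, 18 and 19 without replicate 1, 2, 3 and 4, where 5.87%, 5.80%, 8.57% and 7.77% of all genes were lower. Of the 18, 9 (*Actn4*, *Flnc*, *Xirp1*, *Xirp2*, *Ldb3*, *Csrp3*, *Fhl1*, *Sorbs2* and *Synpo2l*) passed in each of these fits.

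The size of the difference varied with the replicate number. The median difference over the 35 genes was -0.81 in replicate 1, -0.32 in replicate 2, -0.31 in replicate 3 and -0.44 in replicate 4. In turn 29, 30, 27 and 30 of the 35 genes were lower, where 9923, 9652, 9662 and 9751 of all 19505 genes were. By these medians replicate 1 held the widest gap. The median log2 fold change was -0.54 with all arrays and -0.43 without both arrays of replicate 1. Without the Ad-Cre-mCherry array of that number alone, which leaves its Ad-mCherry array unmatched, it was -0.28. Without both arrays of replicate 1, 2 genes in place of 6 were lower by the thresholds of the study (*Sorbs2* and *Actn4*, where 2.04% of all genes were lower in place of 3.50%). *RhoA* differed by -1.17, -0.52, -0.21 and -1.16 in the same order.

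**Figure D2:**
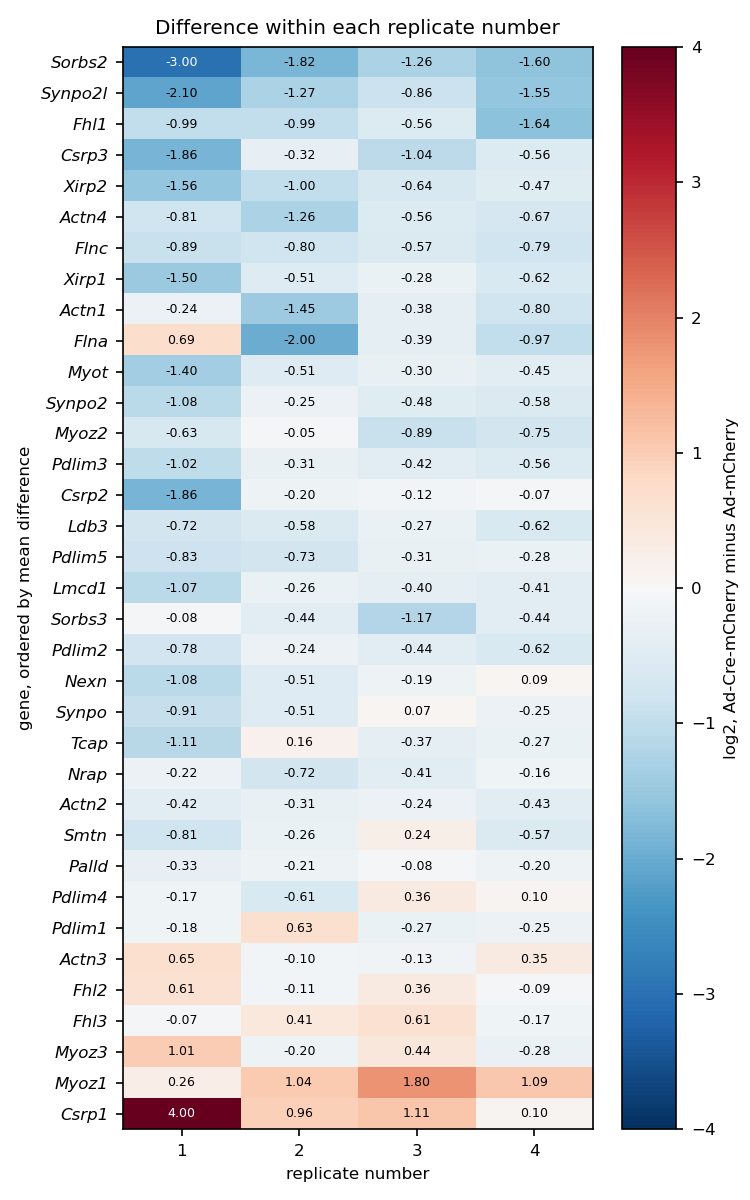
Heat map of the difference in log2 level, Ad-Cre-mCherry minus Ad-mCherry (colour and printed value), for the 35 genes (vertical, ordered by mean difference) within each replicate number (horizontal). Medians are -0.81, -0.32, -0.31 and -0.44 for replicates 1 to 4.

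The sorbin homology adaptors gave the largest decrease. *Sorbs2*, which couples alpha-actinin and actin to signalling kinases at the Z-disc, read 13.06, 13.61, 13.31 and 12.27 in Ad-mCherry replicates 1 to 4. With Ad-Cre-mCherry it read 10.06, 11.79, 12.05 and 10.67, so that every array lay below every Ad-mCherry array (exact permutation p = 0.0286, two-sided, which is the minimum for 4 arrays a group). Its level was 3.78-fold lower with Ad-Cre-mCherry (log2 fold change -1.92, standard error 0.46, 95% confidence interval -2.96 to -0.88), and *Sorbs2* passed the thresholds of the study in all 12 settings that left out 1 array or 1 replicate number. The limma adjusted p was 0.729 without the block and 0.0314 with it (blocked interval -2.50 to -1.34), and with the block it ran from 0.025 to 0.249 when 1 replicate number was left out. By replicate number *Sorbs2* differed by -3.00, -1.82, -1.26 and -1.60. Its relative *Sorbs3* encodes vinexin, an adaptor of focal adhesions, and read 8.50, 8.51, 8.17 and 8.36 against 8.42, 8.07, 7.0 and 7.92. Replicate 3 of the Ad-Cre-mCherry group was its lowest array and replicate 1 lay within the Ad-mCherry values, and its log2 fold change of -0.53 passed the thresholds only with the block (blocked interval -0.99 to -0.07).

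Of the synaptopodins, *Synpo2l*, a Z-disc protein of heart and skeletal muscle that binds alpha-actinin, had the lowest log2 fold change. The Ad-mCherry arrays read 12.19, 11.60, 12.87 and 11.70, and the Ad-Cre-mCherry arrays 10.09, 10.33, 12.01 and 10.15. Replicate 3 was the highest array of both groups, and only the Ad-Cre-mCherry array of that number overlapped the Ad-mCherry arrays (exact permutation p = 0.0857). The level was 2.72-fold lower (log2 fold change -1.45, interval -2.47 to -0.42), with a limma adjusted p of 0.729 without the block and 0.0396 with it, and of 0.0473 to 0.249 with the block when 1 replicate number was left out. Without replicate 1 and without the block the log2 fold change was -1.23 and no longer passed the thresholds. The related *Synpo2*, or myopodin, which bundles actin at the Z-disc, differed by -1.08, -0.25, -0.48 and -0.58 in replicates 1 to 4 and passed only with the block (log2 fold change -0.60, blocked interval -1.02 to -0.17). *Synpo*, whose product bundles actin in kidney podocytes and dendritic spines, was a dim row (4.99 ± 0.18 against 4.59 ± 0.28, SD, n = 4) and passed in neither fit. *Nexn*, the Z-disc protein nexilin, had a log2 fold change of -0.42 (interval -1.03 to 0.19), and *Smtn*, the smooth muscle actin-binding protein smoothelin, one of -0.35 (interval -0.83 to 0.13). Both were lower in 3 of 4 replicate numbers and passed in neither fit.

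The promoters of these genes are shown because many of the genes were lower together and because the CArG box, the site of serum response factor, is known to respond to RhoA and actin through the myocardin family. RefSeq promoter windows of 300 bases (250 before the start and 50 after, GRCm38.p6, 5′ to 3′ on the gene's strand) covered 25 of the 36 genes with 37 windows. Windows are given for *Sorbs2* and *Synpo2l*, which fell at a limma adjusted p under 0.05 only with the replicate block. Those that hold a CArG box are also given (*Ldb3*, *Fhl1*, *Lmcd1* and *Fhl2*, of which *Fhl2* was not lower). Motif matches are in capitals. A second *Ldb3* window overlaps the first and is left out, as are windows of *Sorbs2* and *Fhl1* that hold none of these matches or no CArG box.
Sorbs2, chr8:45507538-45507837 (+ strand): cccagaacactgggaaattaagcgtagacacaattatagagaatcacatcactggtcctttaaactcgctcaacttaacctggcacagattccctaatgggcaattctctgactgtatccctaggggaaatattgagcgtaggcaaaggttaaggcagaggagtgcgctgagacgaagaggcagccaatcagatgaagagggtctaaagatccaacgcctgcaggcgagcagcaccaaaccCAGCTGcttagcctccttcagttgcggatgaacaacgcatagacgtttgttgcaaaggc
Synpo2l first start, chr14:20668305-20668604 (- strand): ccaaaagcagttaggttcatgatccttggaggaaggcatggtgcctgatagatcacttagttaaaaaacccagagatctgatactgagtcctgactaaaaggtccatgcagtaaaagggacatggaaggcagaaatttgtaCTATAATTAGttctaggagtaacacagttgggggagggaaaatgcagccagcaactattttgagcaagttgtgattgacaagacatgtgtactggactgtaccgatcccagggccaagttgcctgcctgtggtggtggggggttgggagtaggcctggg
Synpo2l second start, chr14:20664525-20664824 (- strand): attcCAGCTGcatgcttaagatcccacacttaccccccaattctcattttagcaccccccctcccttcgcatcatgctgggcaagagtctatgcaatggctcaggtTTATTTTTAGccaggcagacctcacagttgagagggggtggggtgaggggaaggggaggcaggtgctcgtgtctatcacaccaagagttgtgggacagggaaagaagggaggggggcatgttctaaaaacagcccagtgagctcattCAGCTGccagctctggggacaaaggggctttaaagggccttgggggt
Ldb3, chr14:34588632-34588931 (- strand): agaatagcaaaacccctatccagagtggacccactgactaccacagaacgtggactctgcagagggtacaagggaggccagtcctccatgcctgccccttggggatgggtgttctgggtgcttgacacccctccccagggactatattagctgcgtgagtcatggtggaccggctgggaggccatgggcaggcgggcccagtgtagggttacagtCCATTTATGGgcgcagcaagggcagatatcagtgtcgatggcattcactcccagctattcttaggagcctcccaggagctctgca
Fhl1, chrX:56779433-56779732 (+ strand): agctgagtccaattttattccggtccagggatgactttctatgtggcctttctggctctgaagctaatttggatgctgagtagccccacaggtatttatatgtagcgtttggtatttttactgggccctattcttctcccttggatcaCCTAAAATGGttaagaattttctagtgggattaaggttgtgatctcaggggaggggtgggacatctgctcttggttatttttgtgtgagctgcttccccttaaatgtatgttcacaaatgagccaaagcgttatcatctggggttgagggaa
Lmcd1, chr6:112273508-112273807 (+ strand): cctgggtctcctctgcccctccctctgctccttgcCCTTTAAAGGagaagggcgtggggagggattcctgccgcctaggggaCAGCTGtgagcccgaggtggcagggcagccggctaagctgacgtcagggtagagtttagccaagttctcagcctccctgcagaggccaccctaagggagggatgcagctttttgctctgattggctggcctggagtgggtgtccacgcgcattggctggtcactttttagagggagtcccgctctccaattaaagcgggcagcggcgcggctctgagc
Fhl2 first start, chr1:43196712-43197011 (- strand): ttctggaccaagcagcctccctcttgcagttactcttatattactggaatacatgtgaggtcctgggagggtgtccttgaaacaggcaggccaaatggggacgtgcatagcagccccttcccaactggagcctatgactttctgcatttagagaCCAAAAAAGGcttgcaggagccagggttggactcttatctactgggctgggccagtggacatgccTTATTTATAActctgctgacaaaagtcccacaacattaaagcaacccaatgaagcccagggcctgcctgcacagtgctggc
Fhl2 second start, chr1:43163912-43164211 (- strand): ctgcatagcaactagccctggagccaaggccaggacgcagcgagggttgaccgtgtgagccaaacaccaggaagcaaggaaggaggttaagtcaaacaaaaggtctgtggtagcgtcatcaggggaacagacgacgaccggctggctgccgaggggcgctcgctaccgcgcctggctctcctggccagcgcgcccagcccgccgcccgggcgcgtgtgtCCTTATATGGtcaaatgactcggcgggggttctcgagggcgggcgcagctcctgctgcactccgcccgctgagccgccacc
The capitals mark CAGCTG, an E-box bound by myogenic factors, in *Sorbs2*. In the *Synpo2l* windows they mark an A/T-rich MEF2 site, beginning 109 and 144 bases before the start, and in the second window also CAGCTG on either side. The CArG box in capitals begins 35 bases before the start in the *Ldb3* window, 102 in *Fhl1* and 215 in *Lmcd1*, whose window also holds CAGCTG in capitals. In *Fhl2* the CArG box begins 96 bases before the first start, with a MEF2 site at 31, and 31 bases before the second start. Both strands were searched, and no match of one motif in these genes overlapped a match of another. A CArG box was found in 6 of the 37 windows, from 4 of the 25 genes (*Fhl1*, *Fhl2*, *Ldb3* and *Lmcd1*), and in 1.63% of all 32851 windows. The overlapping *Ldb3* windows hold the same box, and no share by gene was computed over all windows. A MEF2 site was found in 6 windows (*Fhl2*, *Myoz2*, *Synpo2*, *Synpo2l* and *Xirp2*) and in 3.19% of all windows. The letters CATTCC, the core bound by TEAD factors, were in 7 windows and 14.7% of all windows, and CAGCTG was in 8 windows and 16.3% of all windows. Windows of 1 gene can overlap, and a match describes the letters of the window and not binding. The study reports targets of serum response factor, *Egr1* and *Acta1* among them, as unaffected by *RhoA* loss in cultured myotubes. For muscle growth under load it proposes pathways that do not depend on this factor. Any part of serum response factor in the lower levels was not tested here.

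Of the 4 alpha-actinins, which crosslink actin filaments into antiparallel arrays, the non-muscle *Actn4* differed most. Replicates 1 to 4 read 10.93, 10.98, 10.19 and 10.59 with Ad-mCherry, against 10.12, 9.72, 9.63 and 9.92 with Ad-Cre-mCherry. The groups were apart (exact permutation p = 0.0286), with a log2 fold change of -0.83 (standard error 0.22, interval -1.31 to -0.34), and *Actn4* too passed in all 12 settings with arrays left out. The limma adjusted p was 0.729, and 0.0872 with the block. The other non-muscle member, *Actn1*, was spread over 8.41 to 11.55 among Ad-mCherry arrays and differed by -0.24, -1.45, -0.38 and -0.80 within numbers, and passed with the block (log2 fold change -0.72, blocked interval -1.21 to -0.23). The sarcomeric members stood high in all arrays. *Actn2*, the main Z-disc crosslinker, read 16.58 ± 0.46 against 16.23 ± 0.50 (SD, n = 4), lower in all 4 numbers with a log2 fold change of -0.35 (interval -1.03 to 0.33). *Actn3*, the form of fast fibres, read 15.51 ± 0.57 against 15.71 ± 0.20, with 2 numbers lower and 2 higher. Neither passed in either fit.

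All 5 of the filamins, Xin repeat proteins and *Nrap* were lower. *Xirp1*, an actin-binding Xin protein of the intercalated disc and of developing or damaged muscle, read 12.45, 12.13, 12.08 and 11.60 with Ad-mCherry, against 10.95, 11.62, 11.80 and 10.98 with Ad-Cre-mCherry. Replicates 2 and 3 of the Ad-Cre-mCherry group overlapped the lowest Ad-mCherry array, and the log2 fold change was -0.73 (interval -1.32 to -0.14, limma adjusted p = 0.748). *Xirp1* did not pass without both arrays of replicate 1, without either of them alone, or without the Ad-Cre-mCherry array of replicate 4. Its relative *Xirp2* read 14.63, 16.89, 16.82 and 15.25 against 13.07, 15.89, 16.18 and 14.78. The numbers moved in parallel, 2 and 3 high in both groups and 1 low, and *Xirp2* passed with the block alone (log2 fold change -0.92, blocked interval -1.39 to -0.45, limma adjusted p = 0.0890).
The muscle filamin *Flnc*, an actin crosslinker that binds myotilin and myozenins, had the most even differences of this group. It read 9.78, 10.18, 10.05 and 11.27 against 8.89, 9.38, 9.48 and 10.48, a difference of -0.89, -0.80, -0.57 and -0.79 by number. With the block its log2 fold change of -0.76 passed the thresholds (blocked interval -1.14 to -0.38, limma adjusted p = 0.0872), and without it the groups overlapped. *Flna*, the widely used filamin of cell cortex and stress fibres, varied by 4.17 among Ad-mCherry arrays, differed by 0.69 in replicate 1 and by -2.0, -0.39 and -0.97 in the others, and passed in neither fit. *Nrap*, which scaffolds actin and alpha-actinin during myofibril assembly, had a log2 fold change of -0.38 (interval -1.44 to 0.68), was lower in all 4 numbers and passed in neither.

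The 6 measured PDZ-LIM proteins, which dock on alpha-actinin through the PDZ domain, were all lower in the mean, and 4 of them passed with the block. *Pdlim5*, a Z-disc protein that also carries protein kinases, varied least among Ad-mCherry arrays, at 14.79, 14.57, 14.64 and 14.53. With Ad-Cre-mCherry it read 13.96, 13.84, 14.33 and 14.25, all below the Ad-mCherry arrays (exact permutation p = 0.0286), and its log2 fold change was -0.54 (interval -0.91 to -0.16, limma adjusted p = 0.729). *Pdlim2*, known as a regulator of nuclear ubiquitination in immune cells, was apart too, at 6.44, 6.23, 6.01 and 6.32 against 5.66, 5.99, 5.57 and 5.70 (log2 fold change -0.52, interval -0.90 to -0.14, limma adjusted p = 0.729). Both stopped passing without replicate 1, and *Pdlim2* without replicate 4. *Ldb3*, the Z-disc protein ZASP or Cypher, read 16.14, 16.17, 16.74 and 16.70 against 15.42, 15.59, 16.47 and 16.08. Each number was lower, but the arrays of replicates 3 and 4 stood above those of 1 and 2 in both groups and the groups overlapped in replicate 3. *Ldb3* (log2 fold change -0.55, blocked interval -0.94 to -0.16) and *Pdlim3*, or ALP (-0.58, blocked interval -0.99 to -0.16), passed only with the block. *Pdlim1* and *Pdlim4*, used mostly with stress fibres, had log2 fold changes of -0.02 (interval -0.73 to 0.70) and -0.08 (interval -1.75 to 1.59).

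Among the LIM-only proteins 3 were lower and 1 higher with the block. *Fhl1*, a muscle LIM protein mutated in human myopathies, read 11.81, 16.03, 14.95 and 14.80 against 10.82, 15.04, 14.39 and 13.16. Replicate 1 stood far below the other numbers in both groups, and within numbers *Fhl1* differed by -0.99, -0.99, -0.56 and -1.64. Its log2 fold change of -1.05 had an interval of -3.43 to 1.34 without the block and -1.50 to -0.59 with it (limma adjusted p = 0.0637). *Csrp3*, the muscle LIM protein of the Z-disc, read 14.58, 14.73, 16.03 and 16.46 against 12.72, 14.41, 14.99 and 15.90. Again the groups overlapped while every number was lower (log2 fold change -0.95, blocked interval -1.49 to -0.40, limma adjusted p = 0.122). *Lmcd1*, a LIM protein that represses GATA6, was lower in all 4 numbers (log2 fold change -0.54, blocked interval -0.96 to -0.11).
*Csrp1*, the relative of *Csrp3* found in smooth muscle and fibroblasts, went the other way. It read 7.36, 7.82, 6.11 and 7.09 with Ad-mCherry, against 11.36, 8.78, 7.22 and 7.19 with Ad-Cre-mCherry. The Ad-Cre-mCherry array of replicate 1 stood far above all others, that of replicate 2 lay above the Ad-mCherry arrays, and those of replicates 3 and 4 lay among them. The log2 fold change of 1.54 (interval -0.38 to 3.47) was 0.72 without replicate 1. With the block it passed the thresholds, with and without replicate 1 (blocked interval 0.46 to 2.62, limma adjusted p = 0.178). *Csrp2*, another LIM protein of this family, was a dim row whose log2 fold change of -0.56 came with a difference of -1.86 in replicate 1 and of -0.20, -0.12 and -0.07 in the others. *Fhl2* and *Fhl3*, LIM cofactors of transcription that also bind integrins and actin, had log2 fold changes of 0.19 (interval -1.33 to 1.71) and 0.20 (interval -1.56 to 1.95), each lower in 2 numbers and higher in 2.

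**Figure D3:**
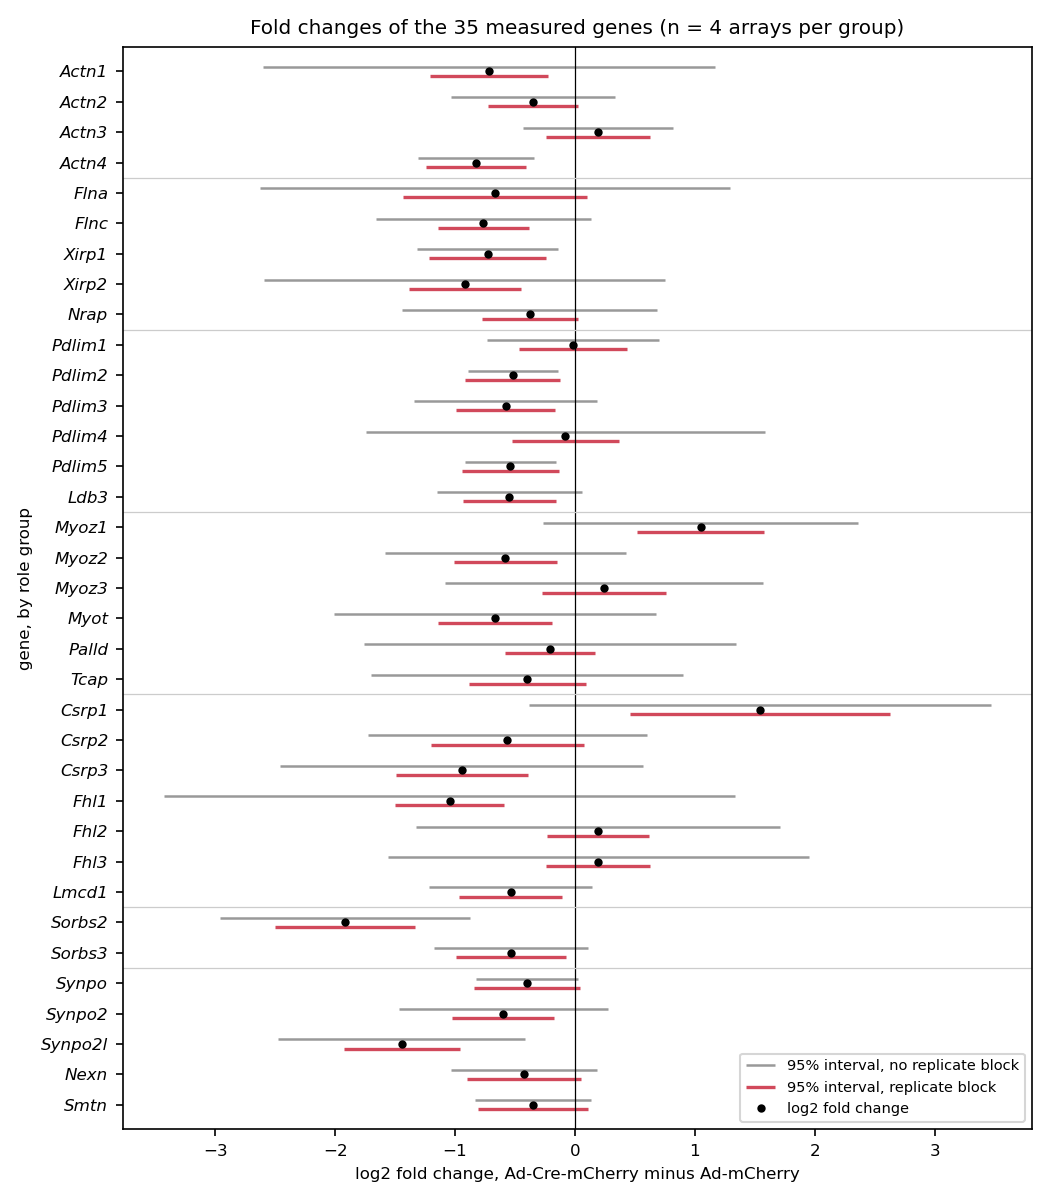
Log2 fold change, Ad-Cre-mCherry over Ad-mCherry, of the 35 genes by role group (points, n = 4 arrays per group), with 95% confidence intervals without the replicate block in grey and with it in red. The blocked intervals of 18 genes that were lower and 2 that were higher, *Csrp1* and *Myoz1*, lie clear of 0.

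The myozenins, myotilin, palladin and telethonin did not pass the thresholds without the block. *Myoz1*, the calcineurin-binding myozenin of fast fibres, was higher in every number, at 6.44, 6.36, 7.60 and 7.59 with Ad-mCherry, against 6.70, 7.40, 9.40 and 8.68 with Ad-Cre-mCherry. Replicates 3 and 4 stood above 1 and 2 in both groups, and the log2 fold change was 1.05 (interval -0.26 to 2.36, limma adjusted p = 0.786, and 0.0878 with the block, blocked interval 0.52 to 1.58). *Myoz2*, the myozenin of slow fibres and heart, differed by -0.63, -0.05, -0.89 and -0.75 and passed with the block (log2 fold change -0.58, blocked interval -1.01 to -0.15). *Myot*, or myotilin, which binds alpha-actinin and filamin C, also passed with the block (log2 fold change -0.67, blocked interval -1.14 to -0.19), with its widest difference, -1.40, in replicate 1. *Myoz3* had 2 numbers lower and 2 higher (log2 fold change 0.24, interval -1.09 to 1.57). *Palld*, the actin scaffold palladin, differed by -0.33, -0.21, -0.08 and -0.20, and *Tcap*, which caps titin at the Z-disc, was lower in 3 of 4 numbers (log2 fold change -0.40, interval -1.70 to 0.90). None of these last 3 passed in either fit.

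To compare members of the same family, 10 pairs of relatives were compared by the difference of their log2 fold changes. None reached an exact permutation p under 0.05 over 4 arrays against 4 (smallest adjusted p over the 10 pairs 0.357, smallest p possible 0.0286). In 5 pairs the difference had the same sign in all 4 replicate numbers, where an exact sign-flip test cannot go below 0.125 (adjusted 0.250). *Sorbs2* less *Sorbs3* gave -1.39 (-2.92, -1.38, -0.09 and -1.16 in replicates 1 to 4). *Myoz1* less *Myoz2* gave 1.63 (0.89, 1.09, 2.69 and 1.84). *Fhl1* less *Fhl2* gave -1.24 (-1.60, -0.88, -0.92 and -1.55). In the pairs *Actn2* less *Actn3*, at -0.54, and *Synpo2* less *Synpo2l*, at 0.85, the smallest difference fell in replicate 3. The remaining pairs, such as *Pdlim3* less *Pdlim5* at -0.04 or *Flna* less *Flnc*, held both signs.

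**Figure D4:**
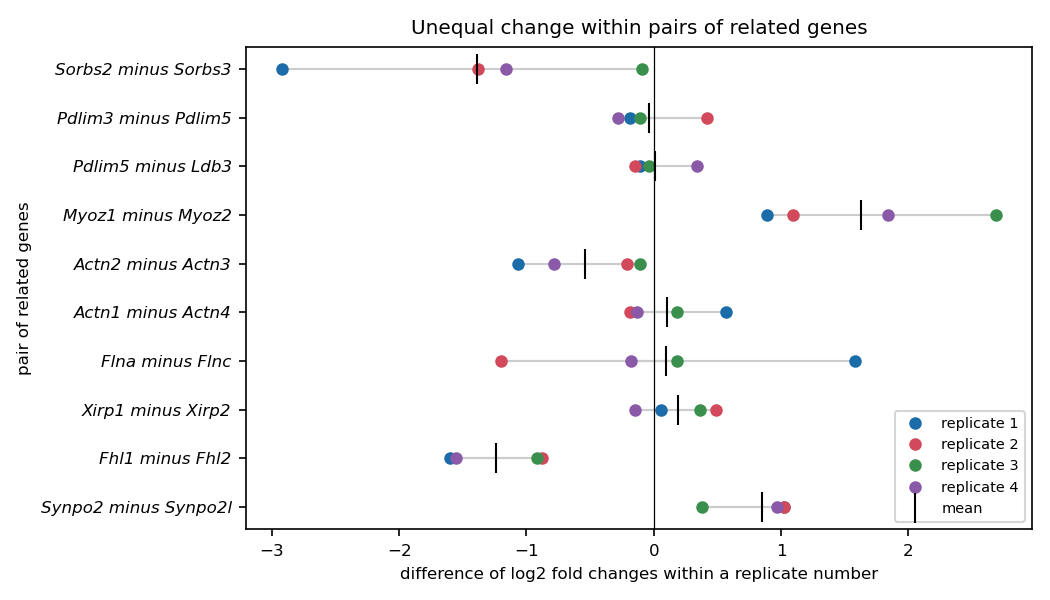
Difference of the log2 change, Ad-Cre-mCherry minus Ad-mCherry, between 10 pairs of relatives (horizontal axis), with 1 coloured point per replicate number and a black bar for the mean. The 4 points lie on 1 side of 0 in 5 pairs, among them *Sorbs2* less *Sorbs3* and *Myoz1* less *Myoz2*.

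Another 35 genes of the Z-disc, thin filament and actin crosslinking were listed beside these, and 30 were measured. In the mean 21 were lower and 9 higher, with a median log2 fold change of -0.33. At the thresholds of the study 2 of 30 were lower (6.67%, against 3.50% of all genes) and 0 higher. *Filip1*, which binds filamin A, read 12.78, 11.79, 12.64 and 12.25 against 10.43, 11.00, 11.98 and 11.33 (log2 fold change -1.18, interval -1.95 to -0.41, limma adjusted p = 0.729) and passed in all 12 settings with arrays left out. *Ablim1*, an actin-binding LIM protein, had a log2 fold change of -0.85 (interval -1.60 to -0.11) and passed in 6 of the 12. With the block 11 were lower (36.7%, against 8.20% of all genes), among them *Lima1* (-0.90), *Pls3* (-0.89), *Ttn* (-0.65), the giant spring anchored in the Z-disc, and *Neb* (-0.60), the thin filament ruler, and 2 were higher (6.67%, against 6.54% of all genes), *Smtnl1* (1.66), a smoothelin-like protein, and *Fscn1* (0.68), the actin bundler fascin. The smallest limma adjusted p among the 30 with the block was 0.0757. *Des*, the intermediate filament that ties Z-discs together, read 16.42 ± 0.42 against 16.38 ± 0.33 (SD, n = 4), with 2 numbers lower and 2 higher (log2 fold change -0.04, interval -0.61 to 0.52).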

How the data were processed

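RNA was measured on 8 Affymetrix arrays, 4 per virus. Per the labels and the study's methods, 25 ng of RNA was amplified, and the authors made the deposited log2 values with RMA in Affymetrix Expression Console, which corrects background, normalizes arrays by quantiles and summarises probes. No source used here gives their versions. The methods name an array design other than the one whose row identifiers the table carries. No background values were used, so how far dim rows lie above background is unknown. The lowest deposited value was 2.05 and the highest 19.89. Medians of the arrays lay between 4.78 and 4.87, arrays correlated at 0.962 to 0.992, and the number of arrays limits the precision. A single symbol was given for 19572 of 22206 rows (2634 are unnamed here), and taking the brightest row of each symbol left 19505 genes. A row is called dim where its mean lies below the median row mean.

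Genes were compared by lmFit and eBayes of limma 3.58.1, run in R 4.3.3, and two-sided p-values were adjusted by Benjamini-Hochberg over all of them. The thresholds of the study are those applied to its arrays, since the test behind them is not named. Exact permutation tests are two-sided, of 4 against 4 arrays. The replicate numbers are taken to pair the arrays because of the data, since no source states a pairing. Once group means were removed, correlations within a number were 0.561, 0.516, 0.623 and 0.557 (minimum 0.1), and those across numbers lay between -0.424 and 0.128. All members are named, with the value of every array for those past the thresholds without the block, at an adjusted p under 0.05 with it, or without overlap between groups, and of the other Z-disc genes those past the thresholds. Further genes outside the 36, and further members given array by array, were chosen after their values were seen. Members, lists and tests were chosen with earlier results of these data known. Alternatives tried were median centring, a second quantile normalization, the replicate block, a filter on dim rows, means over the rows of each gene, trended and robust eBayes, and leaving out each array and each replicate number.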

Additional observations from a re-analysis of the deposited data

Results flagged for a closer look

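*Synpo2l* in Ad-Cre-mCherry replicate 3 stood apart from the rest of its group, at 12.01 on the log2 scale against 10.09 to 10.33 in the other 3 arrays. The gap to its nearest neighbour was 0.875 of the range of the group, above Dixon's 95% critical value for 4 arrays. Of 76 groups of 4 arrays examined this was the only such value. Chance alone flags about 1 group in 20, a higher rate than 1 in 76. The Ad-mCherry array of the same number was also the highest of its group for *Synpo2l*, at 12.87.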

How the results depend on the processing

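Tried were quantile normalization again, median centring and the filter on dim rows (33 of 35 genes left). The mean of all rows and trended and robust eBayes were also tried. In each, every Z-disc and crosslinking gene tested kept its direction and its side of the thresholds. The filter and the eBayes settings do not change a gene's values, so no direction could turn there. Averaging rows could change little, since 19572 rows gave 19505 genes. The replicate block moved the counts from 6 to 18 lower and from 0 to 2 higher, from 0 to 2 at an adjusted p under 0.05, and from 2 to 11 lower and 0 to 2 higher among the other Z-disc genes. Each number holds an array of each virus, so the block leaves every log2 fold change as it was and no direction could turn. The block lost no call. Over all genes the block moved the share lower from 3.50% to 8.20% and the share higher from 2.92% to 6.54%.

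Leaving out 1 array or 1 replicate number in turn gave 2 to 9 genes lower and 0 to 1 higher. Among the other Z-disc genes 1 to 6 were lower and 0 to 4 higher. Over all genes the same settings gave 2.04% to 4.3% lower and 1.41% to 3.6% higher. The median log2 fold change of the Z-disc and crosslinking genes was -0.61 to -0.28. Of the pairs of relatives, 0 to 1 had an exact permutation p under 0.05 (1 without Ad-Cre-mCherry replicate 3). With the block, leaving out a replicate number gave 0 to 3 genes at a limma adjusted p under 0.05. The *RhoA* log2 fold change ran from -0.95 to -0.60. The cause of these shifts was not tested. The direction turned in at least 1 such setting for *Actn3* (-0.042 to 0.38), *Fhl2* (-0.23 to 0.65), *Fhl3* (-0.40 to 0.88), *Flna* (-1.29 to 0.10), *Myoz3* (-0.27 to 0.61), *Palld* (-0.69 to 0.33), *Pdlim1* (-0.25 to 0.22) and *Pdlim4* (-0.60 to 0.47). It also turned for the pairs *Actn1* less *Actn4* (-0.41 to 0.52), *Flna* less *Flnc* (-0.44 to 0.91), *Pdlim3* less *Pdlim5* (-0.27 to 0.24), *Pdlim5* less *Ldb3* (-0.11 to 0.16) and *Xirp1* less *Xirp2* (-0.32 to 0.74). No gene named as passing the thresholds without the block was among them.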
